A study of Gallus gallus with 24 samples.

Results

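The comparison of the fat line (FL) with the lean line (LL) at 1 wk of age rested on 4 of the 24 spotted cDNA arrays of the study, chosen by their labelled age and numbered as replicates 1 to 4. Both lines are broiler chickens bred in opposite directions for abdominal fat weight, FL for a heavy and LL for a light depot, with no other treatment or allele named in the labels. All birds were males (cockerels) under a standard broiler regime, and the tissue was abdominal fat. Each array set total RNA of 1 FL bird against total RNA of 1 LL bird, so a ratio on an array can come from either bird. The LL cDNA carried Alexa Fluor 647 and the FL cDNA Alexa Fluor 555 on replicates 1 and 3, and the dyes were exchanged on replicates 2 and 4. The other 20 arrays held the same lines at 3, 5, 7, 9 and 11 wk.

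Abdominal fat of a young chick is a growing depot that holds adipocyte precursors, lipid-storing adipocytes, vessels, connective tissue and leukocytes. In birds most fatty acids are made in the liver and reach fat as lipoproteins, which adipocytes take up through lipases, fatty acid transporters and binding proteins. Albumin (ALB), the fibrinogen chains and transthyretin (TTR) are plasma proteins made chiefly by hepatocytes, and their transcripts are used here as markers of liver RNA.

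The values were the authors' deposited log2 ratios of 19200 spots, reduced to 15027 features, of which 6428 were named genes. A mean dye effect estimated from all ages was taken off each ratio, and the 4 values given for a gene below are these dye-corrected ratios on replicates 1 to 4, in that order. The sign convention was not given in the sources used here. The titles name FL first, so FL was likely the numerator, and "above 0" means higher in the numerator line. This was not settled, and with LL as numerator each sign would be the opposite. Ratios carry no level, so the labelled tissue could not be checked by the presence of adipocyte transcripts.

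With the ratios as read here, the 4 arrays of 1 wk agreed little with each other. Across features, the Pearson correlation between dye-corrected ratios was -0.353 for replicates 3 and 4, -0.187 for replicates 1 and 2, and between -0.0372 and 0.0573 for the other 4 pairs. By rank (Spearman), replicates 2 and 4 stood at 0.193, replicates 2 and 3 at -0.158, replicates 1 and 2 at -0.320 and replicates 3 and 4 at -0.240. The 2 measures thus differed most for pairs with replicate 2, which holds the largest ratios, and somewhat less for replicates 3 and 4. The reason was not tested. The mean Pearson correlation was -0.0857, against 0.155 at 3 wk, 0.0699 at 9 wk, 0.0253 at 11 wk, -0.0807 at 5 wk and -0.0930 at 7 wk. These correlations are across features of the same arrays, describe those arrays and carry no p-value. Before the dye correction, the same-dye pair of replicates 1 and 3 stood at 0.218, the same-dye pair of replicates 2 and 4 at -0.0279, and replicates 3 and 4 at -0.416 (Pearson). By rank the pair of replicates 2 and 4 stood at 0.260 before the correction. The mean Pearson correlation before the correction was 0.0949 for same-dye pairs and -0.183 for opposite-dye pairs at 1 wk. Same-dye means were above 0 and opposite-dye means below 0 at every other age too. If the ratios were turned by the dyes, a deposited correlation of an opposite-dye pair would take the other sign.

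The spread also differed by array. The SD over spots was 0.27 on replicate 1, 0.364 on replicate 2, 0.316 on replicate 3 and 0.374 on replicate 4. Replicate 2 held 247 features above 1 and 20 below -1, whereas replicate 4 held 180 and 141. Replicate 1 held 41 and 23, and replicate 3 held 53 and 44. The large ratios on replicate 2 thus lay mostly on one side. All 160 missing values of the study were on replicate 4.

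**Figure D1:**
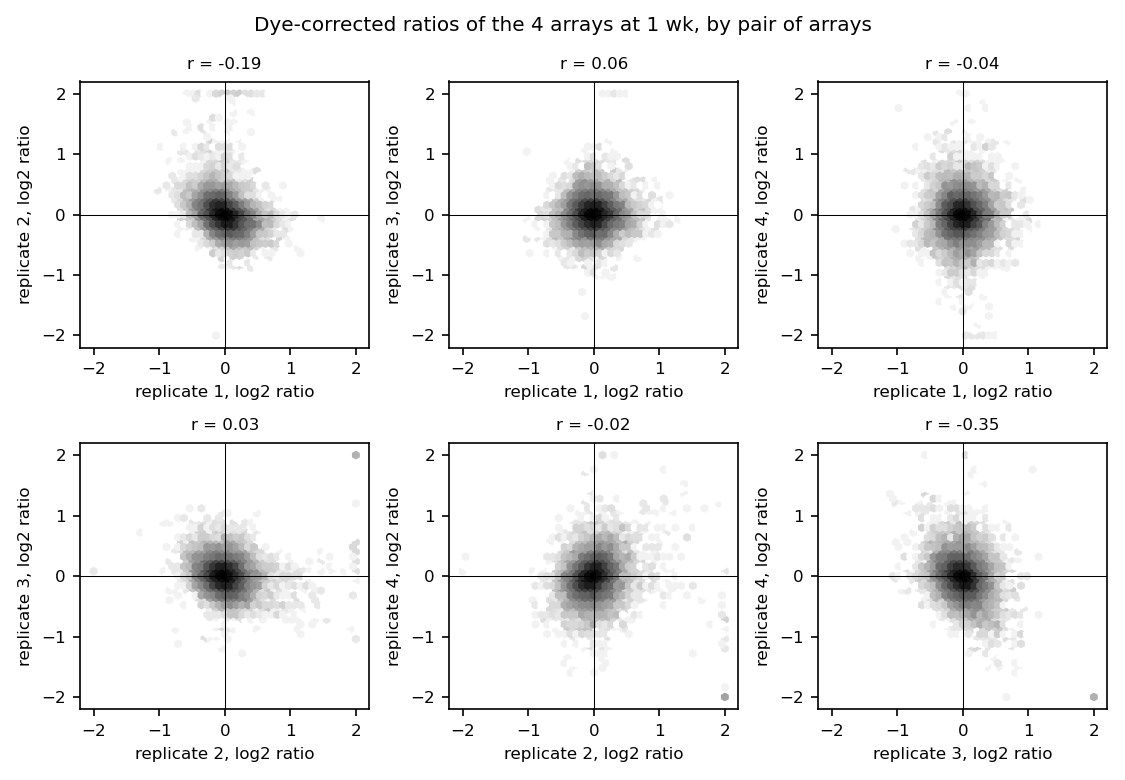
Dye-corrected log2 ratios of all features on 1 array of 1 wk against another, 1 panel per pair of arrays, with darker cells holding more features (log scale) and values past 2 or -2 drawn at 2 or -2. The clouds for replicates 1 and 2 and for replicates 3 and 4 slope downward (Pearson r of -0.187 and -0.353), and features beyond 2 on replicate 2 reach the edge.

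Liver transcripts set replicate 2 apart. ALB, the main plasma carrier protein, read 0.18, 4.12, 1.17 and -1.83, so it was far above 0 on replicate 2, above 0 on replicate 3 and below 0 on replicate 4. FGB, the fibrinogen beta chain, read 0.011, 4.28, 0.14 and -1.06, with replicate 2 again the highest and replicate 4 the lowest. TTR, a carrier of thyroid hormone, read -0.24, 2.06, 0.27 and -0.77 in the same order of arrays. Their means over 4 arrays were 0.91 for ALB (SE 0.581), 0.84 for FGB (SE 0.491) and 0.33 for TTR (SE 0.266), each with a limma adjusted p of 1. Without replicate 2 all 3 means turned below 0, to -0.22, -0.37 and -0.28. For each of the 3 genes the arrays lay on both sides of 0. The SDs over the 4 arrays were 2.48 for ALB, 2.35 for FGB and 1.23 for TTR. The SEs rest on a spread shared over all ages and do not measure that of these arrays.

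Spots of one gene differed in size. The 2 ALB spots read 4.86 and 3.37 on replicate 2, and -2.62 and -1.04 on replicate 4. The 3 TTR spots read 4.36, 0.32 and 1.51 on replicate 2, so averaging them lowered the TTR value. Fibrinogen chains on replicate 2 differed as well, at 4.28 for FGB, 1.25 for FGA and 0.39 for FGG. FGA and FGG were named after their values were seen.

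The wider hepatocyte list had its highest median on the same array. Of its 43 genes 31 were measured, and their median was 0.036, 1.02, 0.111 and -0.437 on replicates 1 to 4, with 21, 28, 24 and 4 of the 31 above 0. Genes outside that list, chosen for the largest SDs at 1 wk, are given next. LBFABP, a liver fatty acid-binding protein of birds, read -0.0065, 3.50, 0.38 and -0.33. GATM, an enzyme of creatine synthesis, read -0.17, 3.07, 0.17 and -1.17, and PSPH, which makes serine, read 0.014, 2.67, 0.55 and -0.68. These 3 genes were highest on replicate 2. On the hepatocyte list itself, SPP2, a secreted liver phosphoprotein, read 0.27, 1.47, 0.59 and -0.57. It was the 1 gene of the 31 with an unadjusted limma p under 0.05. Over all features 1.66% were above 0 and 1% below at that p. The mean of SPP2 was 0.44, and 0.078 without replicate 2.

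Most features above 2 on replicate 2 had no gene name, and of all 15027 features 6428 were named. Whether the unnamed ones are liver transcripts was not tested. Of the 56 features above 2 on replicate 2, 10 were named, namely ALB, APOB, FGB, GATM, GC, LBFABP, PSPH, TM4SF1a, TMEM123 and TTR. APOB, GC, TM4SF1a and TMEM123 were named after their values were seen. Of the 56, 48 were below 0 on replicate 4. Of all 6428 named genes 3091 were above 0 on that array, and the share over all features was not counted. A set of 17 unnamed features lay above 2 on replicate 2 and below -2 on replicate 4, and on replicate 3 they read between 1.23 and 3.26. Their median was 0.27, 5.34, 2.43 and -2.96 on replicates 1 to 4. The cut-offs put replicate 2 high and replicate 4 low, so that part of the order is no match with ALB. This set was chosen after the values were seen, and copies of one clone cannot be told from different genes among unnamed spots.

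The hemostasis list, C3 and RARRES2 were also highest on replicate 2 and lowest on replicate 4. The hemostasis list had medians of 0.014, 0.359, 0.050 and -0.125, and shared 8 of its 26 measured genes with the hepatocyte list. Without these 8, its other 18 genes still had a median of 0.268 on replicate 2, with 17 of 18 above 0, and -0.102 on replicate 4. PLG, plasminogen, which is also on the hepatocyte list, read 0.13, 1.68, 0.013 and -0.35. SERPIND1, a thrombin inhibitor outside that list, read 0.25, 1.14, 0.11 and -0.18. Without replicate 2 the mean of PLG was -0.092. C3, the central complement protein and also on the hepatocyte list, read 0.20, 1.29, 0.20 and -0.73. C8A, a complement gene of that list, read 0.27 on replicate 2, whereas C1QA, C1QB and C1QC read -0.11, -0.14 and -0.28. C8A and the C1Q genes were named after their values were seen. RARRES2, the adipokine chemerin that liver also makes, read 0.069, 0.94, 0.21 and -0.048.

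Among the other 20 arrays the highest liver ratios were on 1 array of 5 wk. There ALB reached 3.63 on replicate 1, FGB 1.94 and TTR 1.18. The next highest values at later ages were 1.02 for ALB and 0.303 for FGB, both on replicate 2 of 7 wk. For TTR the next highest was 0.186, on replicate 3 of 5 wk. The hepatocyte list median was 0.549 on that 5 wk array and between -0.0694 and 0.0833 on the other 19. At 1 wk replicate 2 thus exceeded, and replicate 4 fell below, every array of a later age. The part that liver RNA in one bird's sample plays in other genes of these arrays was not tested. In RNA of whole tissue, fewer cells of a type and less RNA per cell cannot be told apart.

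Replicate 2 also held the lowest ratios of surfactant genes. SFTPA1, surfactant protein A of lung in mammals, read -0.16, -3.69, -0.15 and 0.076. SFTPA2 read 0.54, -2.48, -0.30 and 0.29. Both were far below 0 on replicate 2 alone. Of 16 lung genes listed after these values were seen, 5 were measured, and the other 3 (ABCA3, FOXJ1 and LPCAT1) lay between -0.20 and 0.23 on that array.

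Adipocyte genes had their highest median on replicate 4, where the hepatocyte list had its lowest. Of 20 listed genes 14 were measured, and their median was -0.160, 0.179, 0.039 and 0.761 on replicates 1 to 4. In the mean over 4 arrays 13 of 14 lay above 0 with a median of 0.24, whereas 50.8% of all 6428 named genes lay above 0 with a median of 0.0016. Without replicate 4 the list median was 0.062 with 9 of 14 above 0.

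FABP4, the fatty acid-binding protein of adipocytes, read 0.048, 0.13, 0.022 and 2.92. Both of its spots showed this, at 2.80 and 3.03 on replicate 4. ACSL1, which activates long-chain fatty acids, read 0.21, 0.055, -0.016 and 2.75, and its 2 spots read 2.67 and 2.83 on replicate 4. On replicates 1 to 3 neither gene was beyond 0.21 after the dye correction. Before it, FABP4 read 0.54, -0.37, 0.52 and 2.42, and ACSL1 read 0.80, -0.53, 0.57 and 2.16. Replicates 1 to 3 thus alternated in sign with the dyes, and replicate 4 was still the highest. The SDs over the 4 dye-corrected values were 1.43 for FABP4 and 1.34 for ACSL1, whereas the SEs of both genes rest on a spread shared over all ages. Their means were 0.78 (SE 0.369) for FABP4 and 0.75 (SE 0.341) for ACSL1, each with a limma adjusted p of 1, and the fit without replicate 4 gave 0.024 and 0.043. THRSP, a promoter of lipogenesis, read -0.039, -0.21, 0.26 and 1.58, but its 2 spots differed, at 2.52 and 0.65 on replicate 4. PPARG, the master regulator of adipocyte differentiation, read -0.33, 0.61, 0.056 and 1.25, and was above 0 on 3 arrays. RBP7, a cellular retinol-binding protein of adipocytes and vessels in mammals, read 0.51, 0.062, 1.06 and 1.29. It was above 0 on all 4 arrays, with a mean of 0.73 (SE 0.204, 1.66-fold).

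ADIPOQ, the adipokine adiponectin, went the other way. It read -0.24, 0.16, -0.36 and -0.41, with a mean of -0.22 (SE 0.116). It was thus below 0 on replicate 4, where most of the adipocyte list was above 0. The adipokine list as a whole had 7 of 18 genes above 0 and a median of -0.038.

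**Figure D2:**
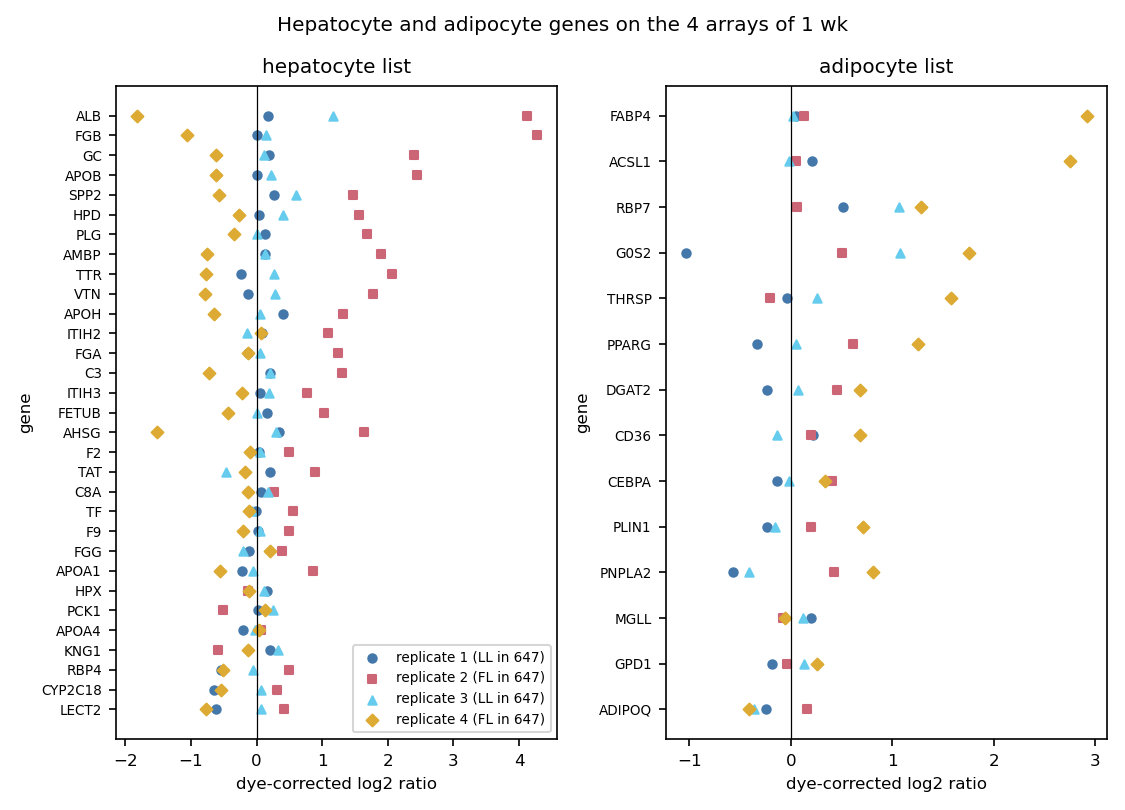
Dye-corrected log2 ratios of the measured hepatocyte genes (left) and adipocyte genes (right), 1 row per gene ordered by its mean, with 1 symbol per array of 1 wk. The highest liver ratios are on replicate 2 (ALB 4.12, FGB 4.28), while ALB is lowest on replicate 4 (-1.83). The highest adipocyte ratios are on replicate 4 (FABP4 2.92, ACSL1 2.75).

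FASN, SCD, ACACA and PGD, enzymes of fatty acid synthesis and its NADPH supply, each had arrays on both sides of 0. Of the 24 measured on the synthesis list, 18 were above 0 with a median of 0.037, and 13 with a median of 0.0048 without replicate 4. FASN, fatty acid synthase, read -0.13, 0.57, 0.014 and 0.21, and its mean of 0.16 (SE 0.101) joined spots at 0.41 and -0.076. SCD, which desaturates stearate, read -0.065, 0.16, -0.34 and 0.41. ACACA, acetyl-CoA carboxylase, read -0.23, 0.025, -0.11 and 0.053. SCD and ACACA each had arrays on both sides of 0 and means of 0.040 (SE 0.162) and -0.066 (SE 0.0892). PGD, an NADPH-producing enzyme of the pentose phosphate pathway, read 0.43, -0.082, 0.14 and 0.62.

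Genes of lipid uptake and storage lay mostly above 0. Of 15 measured genes 12 lay above 0 with a median of 0.108, and 8 of the 11 genes outside the adipocyte list lay above 0 with a median of 0.057. Without replicate 4 the list had 9 of 15 above 0 and a median of 0.029. SLC27A4, a fatty acid transporter, read 0.095, 0.11, 0.26 and 0.57, above 0 on all 4 arrays. FABP5, another fatty acid-binding protein, read 0.0094, 0.30, 0.18 and 0.52. At an unadjusted p under 0.05, 4 of the 15 were above 0 and 0 below. The background of such features over the whole array was 1.66% above 0 and 1% below 0. Lipolysis and oxidation genes had 15 of 22 above 0 with a median of 0.067, among them ETFA, an electron carrier of beta-oxidation, at 0.18, 0.42, 0.19 and 0.012.

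The line comparison across all features called none. In limma, 0 of 15027 features (0%) passed an adjusted p of 0.05 at 1 wk, and the smallest adjusted p was 0.187. At an unadjusted p under 0.05 there were 401, of which 250 lay above 0 and 151 below. The median SE of a ratio was 0.109. Features with one sign on 4 of 4 arrays numbered 1273 of 14952, and 595 of them (3.98%) were above 0 and 678 (4.53%) below. That share of 8.51% compares with 16.6% at 3 wk, 7.35% at 5 wk, 6.18% at 7 wk, 17.1% at 9 wk and 11.1% at 11 wk.

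The named genes that kept one sign on every array of 1 wk, with the smallest p in each direction, are described next. They were picked for that shared sign, which is therefore no result about them. None of them passed the adjusted test, with a limma adjusted p of 1 for each. GSTA2, a glutathione S-transferase that detoxifies lipid peroxidation products, read 0.38, 0.42, 0.29 and 0.25. Its spot averages were close together on the 4 arrays, with a mean of 0.33 (SE 0.0755, 1.26-fold). A small p favours close arrays, so this closeness is no result either. One of its 2 spots had no value on replicate 4, and the spots had means of 0.51 and 0.21. They read 0.69 and 0.079 on replicate 1, 0.42 and 0.41 on replicate 2, and 0.42 and 0.16 on replicate 3. MGST1, the microsomal glutathione S-transferase, read 0.12, 0.75, 0.69 and 0.76, with a mean of 0.58 (SE 0.183) and replicate 1 well below the other 3.

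HSPA5, the main chaperone of the endoplasmic reticulum, read 0.22, 0.38, 0.35 and 0.82. ZCCHC11, an enzyme that adds uridines to small RNAs, read 0.12, 0.46, 0.77 and 0.24. HAPLN1, a link protein of the hyaluronan matrix, read 0.62, 0.47, 0.0042 and 0.46. HSPA5 was highest on replicate 4 and HAPLN1 was near 0 on replicate 3. SLIT1, a guidance ligand, read 0.037, 0.37, 0.86 and 0.18. PTPRN, a protein of secretory vesicles, read 0.10, 0.32, 0.29 and 0.74. Both were near 0.1 or lower on replicate 1. SELPLG, the P-selectin ligand of leukocytes, read 0.41, 0.18, 0.15 and 0.38. FZD6, a Wnt receptor, read 0.14, 0.27, 0.26 and 0.35. SELPLG and FZD6 had means of 0.28 (SE 0.082) and 0.26 (SE 0.0797).

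Below 0 on every array, LUC7L2, a splicing factor of the U1 particle, read -0.92, -0.72, -0.31 and -0.55, with a mean of -0.62 (SE 0.162). PARD3B, a cell polarity protein, read -0.34, -0.67, -0.22 and -0.54, with a mean of -0.44 (SE 0.0959). CDT1, which licenses replication origins, read -0.58, -0.26, -0.19 and -0.33, with a mean of -0.34 (SE 0.0786). Its 2 spots differed, with means of -0.63 and -0.051. In all 3 genes replicate 3 was the array nearest 0. TSTA3, which makes GDP-fucose, read -0.19, -0.53, -0.11 and -0.40, and its 2 spots had means of -0.57 and -0.044. GEM, a small GTPase, read -0.20, -0.13, -0.41 and -0.42. PYGB, a glycogen phosphorylase, read -0.26, -0.45, -0.17 and -0.099. These genes stood at means between -0.31 and -0.24. ITPA, which clears inosine nucleotides, read -0.49, -0.046, -0.12 and -0.56. LURAP1, TMEM79 and MPLKIP had means of -0.28, -0.21 and -0.28. The 2 spots of MPLKIP had means of -0.485 and -0.068.

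**Figure D3:**
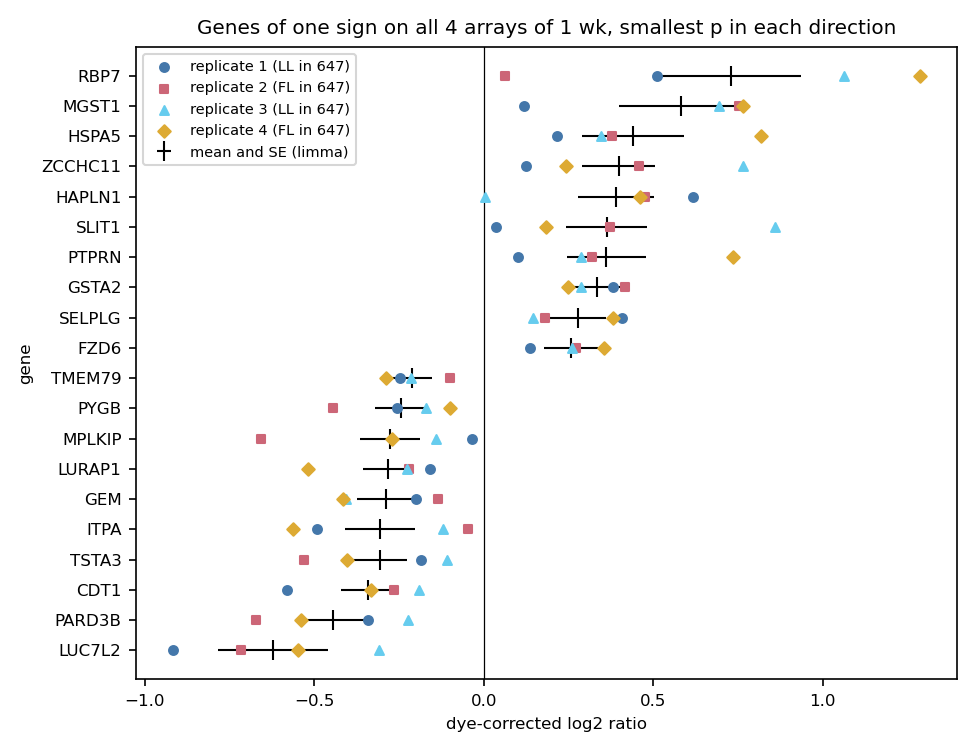
Dye-corrected log2 ratios on the 4 arrays of 1 wk for the named genes of one sign on every array with the smallest p, 10 in each direction, with the mean and its SE from limma. GSTA2 lies between 0.25 and 0.42 on all 4 arrays, while RBP7 runs from 0.062 to 1.29.

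Glutathione and xenobiotic enzymes had 30 of 44 measured genes above 0 with a median of 0.062. At an unadjusted p under 0.05, 4 of the 44 were above 0 and 0 below. Over all features 1.66% were above 0 and 1% below at that p. GSTA3, a close relative of GSTA2 named after its values were seen, read 0.28, 0.47, 0.25 and 0.37. The list's median was -0.0024 on replicate 1 and 0.119 on replicate 2. GSTA2 and MGST1 were picked for being above 0 on every array, so their signs on these arrays are no contrast with the list. Whether spots of related transferases also bind each other's cDNA was not tested.

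The chaperone list had 23 of 34 genes above 0 with a median of 0.055. On every array 5 were above 0 and 1 below, against 3.98% and 4.53% of all features. The difference in share was not tested. CANX, the chaperone calnexin, read 0.10, 0.57, 0.32 and 0.37. The list's median was -0.022 on replicate 1 and between 0.076 and 0.080 on the other 3 arrays.

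Cell cycle genes had 18 of 40 above 0 and a median of -0.0074, near that of all named genes. Of the 40, 6 were below 0 on every array and 1 above. ORC6, a subunit of the origin recognition complex, read -0.65, -0.15, -0.12 and -0.27, in the same order of arrays as CDT1 at both ends. With the 4.53% of features below 0 on every array as the background, 6 of 40 is a larger share, and it was not tested.

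Mitochondrial respiration genes had 29 of 44 above 0 with a median of 0.061. Of the 44, 5 had an unadjusted p under 0.05 above 0 and 0 below, against 1.66% and 1% of all features. UQCRQ, a subunit of complex III, read 0.34, -0.088, 0.32 and 1.05. NDUFV3, a subunit of complex I, read 0.56, -0.21, 0.81 and 0.27. Both were below 0 on replicate 2 and none of the list kept one sign on every array. Ribosomal protein genes had 37 of 46 above 0 with a median of 0.075, but their median was -0.043, -0.128, 0.342 and 0.190 on replicates 1 to 4. RPL5 read -0.17, 0.34, 0.66 and 0.54, and RPLP0, which is in the ribosomal stalk, read -0.013, 1.05, 0.78 and -0.25.

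Extracellular matrix genes had 34 of 50 above 0 with a median of 0.038, and 28 of 50 with a median of 0.0064 without replicate 4. POSTN, a matricellular protein, read 0.41, -0.51, 0.62 and 1.84, with replicate 4 far above the others. COL4A5, a basement membrane collagen, read -0.0036, -0.19, -0.26 and -0.22. Smooth muscle markers were mostly on the other side, with 4 of 22 above 0 and a median of -0.093. At an unadjusted p under 0.05, 3 of them were below 0 and 0 above, against 1% and 1.66% of all features. ITGA8, an integrin subunit, read 0.029, -0.041, -0.39 and -0.79, and KCNMB1, a potassium channel subunit of smooth muscle, read 0.074, -0.17, -0.43 and -0.19. Skeletal muscle markers had 11 of 28 above 0 and a median of -0.056. TNNI1, slow troponin I, read 0.19, 0.22, 0.23 and 0.22, whereas TTN, the sarcomere protein titin, read -0.23, -0.72, -0.21 and -0.032.

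Markers of other cells that fat can hold lay near 0 in the mean. Macrophage and leukocyte genes had 12 of 25 above 0 with a median of -0.0048. MARCO, a scavenger receptor of macrophages, read -0.034, -0.38, -0.20 and -0.85, below 0 on all 4 arrays. ARHGDIB of the same list read 0.40, 0.23, 0.055 and 0.068, above 0 on all 4 arrays. Endothelial genes had 13 of 24 above 0 with a median of 0.0057, and ECSCR, a surface protein of endothelium, read 0.28, 0.23, 0.11 and 0.30. Erythrocyte genes had 7 of 14 above 0 with a median of -0.0036, and HBA1, an alpha globin, read 0.81, 0.40, -0.19 and 0.88. SLC4A1 of that list went the other way, at -0.12, -0.19, -0.030 and -0.38. The erythrocyte median was lowest on replicate 2, at -0.148, and 0.016 to 0.096 on the others. Mesothelium genes had 6 of 9 above 0, pancreas and gut genes 3 of 7, and adipogenic regulators 12 of 23, with medians of 0.011, -0.065 and 0.0042. CEBPA, an adipogenic transcription factor on the last list, read -0.14, 0.40, -0.016 and 0.34.

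**Figure D4:**
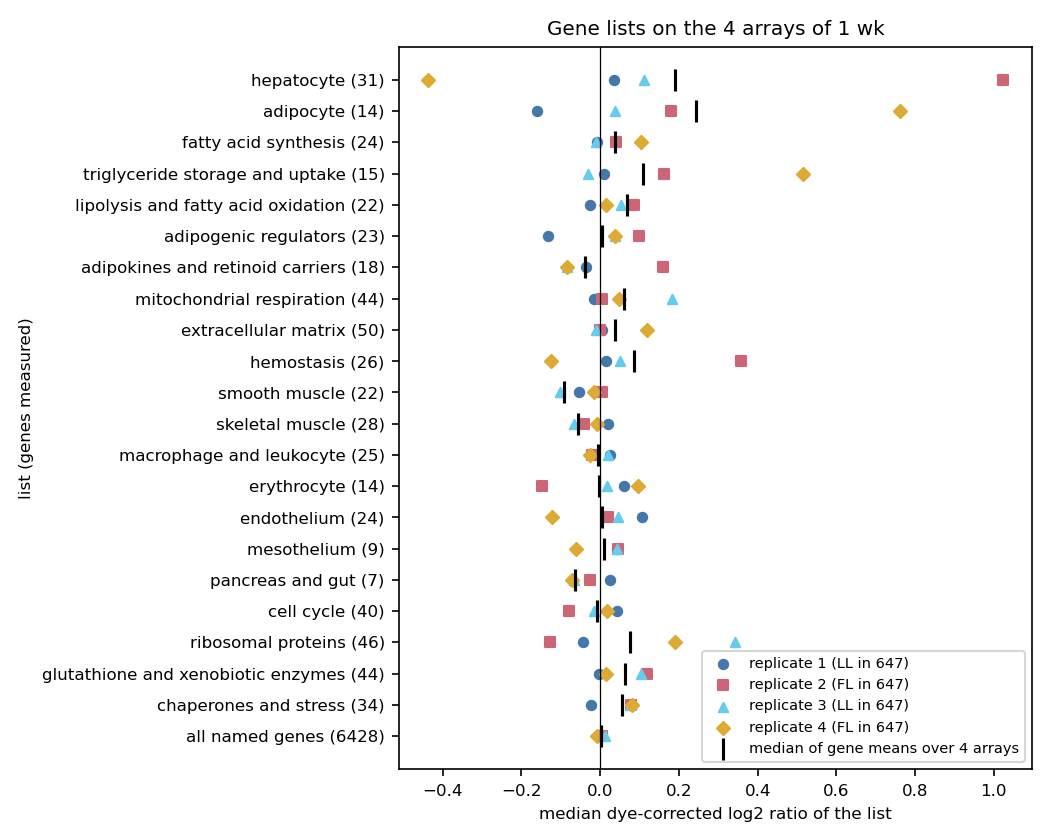
Median dye-corrected log2 ratio of each gene list on the 4 arrays of 1 wk (symbols) and median of the genes' means over those arrays (bar), with the number of measured genes. The hepatocyte list spans -0.437 to 1.02 and the adipocyte list -0.160 to 0.761, while the median of all named genes stays near 0.

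Whether the line difference at 1 wk departs from that at later ages was tested as the 1 wk ratio minus the mean ratio of the 5 other ages. In limma, 1 of 15027 features (0.00665%) passed an adjusted p of 0.05, an unnamed spot that read 0.69, 0.42, 0.54 and 1.16 at 1 wk. Its ratio was 0.70 at 1 wk (SE 0.125) and between -0.34 and -0.019 at the later ages, a difference of 0.86 (adjusted p 0.0405). Leaving out replicate 1, 3 or 4 ended this call, leaving 0 features. Among named genes the smallest adjusted p was 0.271, shared by LUC7L2, CDT1 and GSTA2, with differences of -0.89, -0.40 and 0.39. SELPLG differed by 0.39 (adjusted p 0.414) and PARD3B by -0.44 (adjusted p 0.423). None of these 5 genes passed.

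**Figure D5:**
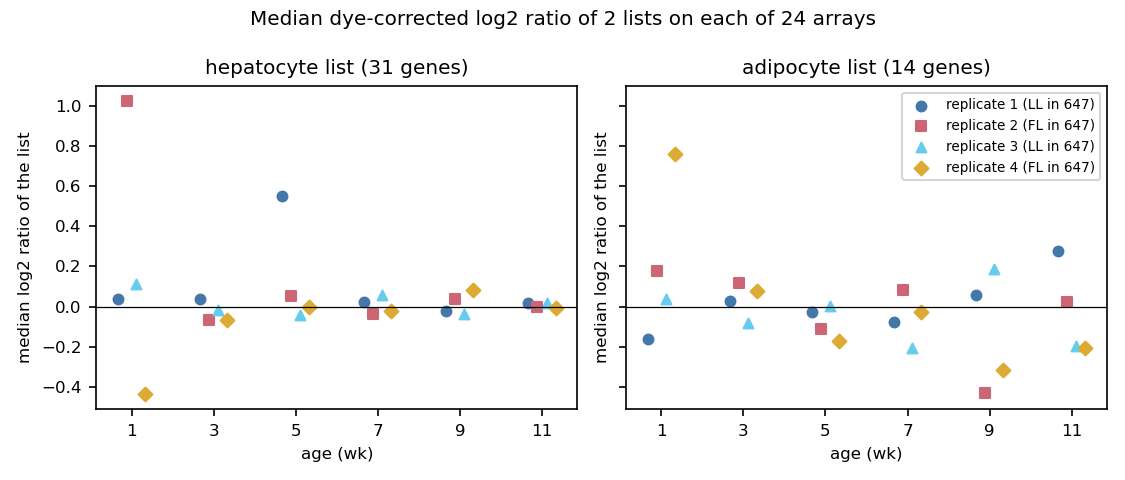
Median dye-corrected log2 ratio of the hepatocyte list (left) and adipocyte list (right) on each of the 24 arrays against age in weeks, with symbols offset sideways by replicate number. Replicate 2 (1.02) and replicate 4 (-0.437) of 1 wk are the highest and lowest arrays for liver genes, and replicate 4 of 1 wk (0.761) is the highest for adipocyte genes.

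For the adipocyte list the extreme array was again one of 1 wk. Its median was between -0.431 and 0.277 on the 20 arrays of later ages, below the 0.761 of replicate 4 at 1 wk. On that array the hepatocyte list was at its lowest, and whether the 2 shifts are linked was not tested.

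The reading of the ratios bears on all these counts. Read as turned by the dyes, with the sign of replicates 1 and 3 opposite to that of replicates 2 and 4, 507 of 15027 features (3.37%) passed an adjusted p of 0.05 at 1 wk and 4220 had one sign on 4 arrays. Copies of one clone were compared under both readings. Over 449 clones with several spots, the intraclass correlation between copies at 1 wk was 0.179 for the part common to the 4 arrays and 0.0249 for the part that alternates with the dyes. The common part was also the higher at 3 wk (0.343 against 0.0817), 7 wk (0.136 against 0.0755) and 11 wk (0.177 against 0.107). At 5 wk the order was the opposite, 0.0275 against 0.227, and at 9 wk the 2 values were 0.0456 and 0.0565. Over 2723 genes with several spots the 1 wk values were 0.122 and 0.0649. The alternating part had the larger SD, 0.204 against 0.14, and 17.3% of its variance lay between print blocks, against 8.02% for the common part. These are descriptions across spots, and they do not settle the direction. The turned reading puts GSTA2 at -0.065, MGST1 at -0.013 and HSPA5 at -0.078, so the direction of these 3 genes holds only as read here.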

How the data were processed

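The authors deposited 1 log2 ratio per spot and array. Per the submitters' processing notes, R 2.11.1 and limma 3.4.5 were used. Background correction, normalization and the sign convention are not given in the sources used here. The base 2 of the logarithm is assumed from what limma writes. Spots were named from the platform annotation after exchanging row and column within each block. Over 5350 pairs of spots of one gene, the mean rank correlation was 0.053 with that exchange and 0.0006 without it. On replicate 2 of 1 wk, 15 of the 50 highest named features were hepatocyte genes with the exchange and 0 without. Of 10601 named spots, 98.6% had an identifier in the RefSeq gene table, used for names only. The 123 spots of 2 control clones were left out, and spots of one symbol were averaged. Of the features, 75 lacked a value on replicate 4 of 1 wk and were fitted on the other arrays.

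Ratios as deposited were fitted over all 24 arrays in limma 3.58.1 (R 4.3.3) with 1 term per age and a dye term, 17 residual degrees of freedom and Benjamini-Hochberg adjustment over 15027 features. On simulated data with 14952 features, the 1 wk test recovered 76% of changes of 0.5, 94% of changes of 1 and 100% of changes of 2 or 3 (log2). The simulated noise was normal, independent and of the same spread on all 24 arrays for a given feature. It does not cover genes with 1 outlying array, as seen at 1 wk. The lack of calls at 1 wk therefore does not show that changes of these sizes are absent. Replicates are different birds, so the spread behind a p-value joins birds and arrays, and it is shared over ages. The members and gene lists were chosen with earlier results of these data known. Genes were named by 5 rules: the 10 smallest p in each direction among genes of one sign on 4 arrays, a panel of 10 genes, the 2 smallest p of each list, the 5 smallest p of 1 wk minus the other ages, and the 8 largest SDs at 1 wk. Alternatives changed the dye term, reading, names, weights, centring, scaling and arrays.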

Additional observations from a re-analysis of the deposited data

Results flagged for a closer look

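Of 90 results examined at 1 wk, 7 had 1 array far from the other 3, and chance marks about 1 in 20 unselected groups of 4. Some of these genes were picked by their values on the same 4 arrays, SFTPA1 for its large SD. That rate is therefore no measure for the 7. The rule was applied to dye-corrected values, where FABP4 stood at 2.92 on replicate 4 and ACSL1 at 2.75, each far above the other 3. Before the correction FABP4 read 2.42 on that array and between -0.37 and 0.54 on the other 3. ACSL1 then read 2.16 there and between -0.53 and 0.80 on the other 3. SFTPA1 stood at -3.69 on replicate 2, far below the others. MGST1 stood at 0.119 on replicate 1, below the other 3 arrays, which lay between 0.69 and 0.76. Before the correction MGST1 read 0.31, 0.56, 0.88 and 0.58, so replicate 1 was less far from the others. Whether these genes would be marked without the dye correction was not tested. The median of the extracellular matrix list was 0.1195 on replicate 4, the highest array. The median of the mesothelium list was -0.06074 on replicate 4, the lowest array. The median of the chaperone and stress list was -0.02241 on replicate 1, again the lowest.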

How the results depend on the processing

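Of 20 settings besides the one reported, 14 turned the sign of none of the 69 named genes, and 50 genes turned in at least 1 of the other 6. Several of the 14 could not turn a sign. Since the dyes were balanced at 1 wk, a gene valued on all 4 arrays keeps its mean without the dye term. The same holds with only the 1 wk arrays, a replicate block, robust moderation or an array of 5 wk left out. No feature was called at 1 wk under any setting except 3. These gave 507 calls (ratios turned by the dyes), 126 (replicates 2 and 4 alone) and 1 (without the array of 5 wk, number 2). The 1 call of 1 wk minus the other ages became 0 with no dye term, array weights, replicates 1 and 3 alone, names as given or spots kept single. It became 322 with turned ratios and 62 with replicates 2 and 4 alone. Leaving out 1 array of 1 wk at a time gave 0 to 1 of those calls. The 1273 features of one sign became 4220 with turned ratios and 2897 with the 1 wk arrays and a dye term of their own, where the term is fitted to the same 4 arrays. The cause of the other changes was not tested.

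With a replicate block 0 features were called at 1 wk, 1 in 1 wk minus the other ages, and 1546 had one sign on 4 arrays. The labels' numbers stand for different birds. With the age and dye terms taken off, the residuals of same-number arrays at different ages correlated at a mean of -0.0623. The mean for other numbers of the same dye orientation was -0.09. The block changed no other call. Centring within print blocks, chosen after seeing the data, gave 0 and 1 calls.

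With the ratios turned by the dyes, 22 of 69 named genes turned their sign, at log2 ratios of GSTA2 -0.065, ZCCHC11 -0.12, MGST1 -0.013, PTPRN -0.0091, SLIT1 -0.034, HSPA5 -0.078, TMEM79 0.076, GEM 0.036 and ITPA 0.13. Others so turned were ADIPOQ 0.15, SPP2 -0.046, PGD -0.081, ETFA -0.065, UQCRQ -0.0045, NDUFV3 -0.41, COL4A5 0.093, ARHGDIB -0.16 and C3 -0.0011. To these add CEL 0.037, ORC6 0.0048, RPL5 -0.12 and RPLP0 -0.52. With the spot names as given, 28 of 69 named genes turned their sign, at log2 ratios of GSTA2 -0.012, ZCCHC11 -0.13, HAPLN1 -0.061, SELPLG -0.19, FZD6 -0.0061, MGST1 -0.013, SLIT1 -0.14, TSTA3 0.097 and MPLKIP 0.044. Others so turned were ALB -0.067, FGB -0.16, SCD -0.053, SPP2 -0.025, ACSL1 -0.14, PGD -0.12, FABP5 -0.21, ETFA -0.088 and CEBPA -0.041. To these add UQCRQ -0.026, NDUFV3 -0.040, PLG -0.051, KCNMB1 0.072, TNNI1 -0.0063, C3 -0.080, EFEMP1 -0.030, CPA1 0.026 and RPL5 -0.042. SFTPA1 turned too, at 0.030. With replicates 2 and 4 alone, 2 of 69 named genes turned their sign, at log2 ratios of ACACA 0.060 and NDUFV3 -0.036. With replicates 1 and 3 alone, 13 of 69 named genes turned their sign, at log2 ratios of FGB -0.077, TTR -0.047, FASN -0.10, SCD -0.25, PPARG -0.25, FABP4 -0.11, ITIH2 -0.087, ACSL1 -0.035 and CEBPA -0.12. Others so turned were EFEMP1 -0.10, GATM -0.096, SFTPA1 0.013 and SFTPA2 0.24. Leaving out 1 array of 1 wk at a time turned 11 genes (replicate 2) or 4 (replicate 4), with lowest and highest ratios of ALB -0.22 to 1.88, FGB -0.37 to 1.51, TTR -0.28 to 0.72, SCD -0.090 to 0.17 and THRSP -0.019 to 0.61. The next of these ranged as ITIH2 -0.011 to 0.42, PLG -0.092 to 0.62, C3 -0.13 to 0.58, EFEMP1 -0.040 to 0.17 and CPA1 -0.36 to 0.11. The last ranged as GATM -0.44 to 1.05, LBFABP -0.039 to 1.31, PSPH -0.080 to 1.10 and SFTPA2 -0.85 to 0.22. Among list medians, those of triglyceride storage (-0.034), fatty acid synthesis (-0.045), the adipocyte list (-0.10) and the extracellular matrix list (-0.042) were below 0 with replicates 1 and 3 alone. With turned ratios, ribosomal proteins stood at -0.25, mitochondrial respiration at -0.052, extracellular matrix at -0.034, chaperones at -0.026 and glutathione enzymes at -0.014. The PARD3B ratio (-0.64) and the TSTA3 ratio (-0.50) were past the adjusted threshold with replicates 2 and 4 alone, a fit in which those 2 arrays are assumed to vary like the other ages. The number of arrays limits the precision, and signal over background is unknown.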
